A study of Mus musculus with 2 samples.

Results

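Messenger RNA of 10 genes of the hypoxia response was examined in mouse kidney after ischemia and reperfusion. Among them were the genes for both oxygen-regulated alpha subunits of hypoxia-inducible factor (HIF). The others were 5 genes whose products mark or remove these subunits, and 3 genes that HIF is known to switch on. The 10 genes were taken by name, with earlier results of these data known, and all 10 were listed among the 19829 genes of the deposited table. The kidneys came from 14-week-old male C57BL/6 mice, 1 wild-type littermate (WT+AKI) and 1 transgenic mouse (TG+AKI). The transgenic mouse overexpresses *Inmt*, which encodes indolethylamine N-methyltransferase, in proximal tubules, and the promoter that drives the transgene was not given in the sources used here. By the study's methods, both mice had received voclosporin, a calcineurin inhibitor, at 30 mg/kg daily into the peritoneum for 2 weeks, although another passage gives a longer course. Both then underwent 30 min of bilateral renal ischemia followed by reperfusion, and left kidneys were taken. The time from injury to collection is given as 48 hours in some passages and as a shorter interval in another, so it is not certain for these libraries. The treatment field of both samples states none, and the title of the TG+AKI sample also calls its mouse a conditional knockout. No sham-operated or untreated library was analysed here, so each value below compares kidneys after ischemia only. Equal injury cannot be assumed. The summed value of 12 injured tubule markers was 14190 in WT+AKI against 1005 in TG+AKI. The study also reports that blood urea nitrogen and creatinine in transgenic mice so treated were comparable to those of sham controls.

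Each group held 1 library. The differences therefore have no replicate check, no p-value is given, and mouse, library, genotype and degree of injury cannot be told apart. Sequencing gave 38542764 gene reads for WT+AKI against 36427421 for TG+AKI. A value is a normalized read count scaled for library size, and 1 read was worth 0.0236 in WT+AKI against 0.0302 in TG+AKI. Ratios carry a 95% interval from the reads (Clopper-Pearson), which covers counting error only. *Inmt* was at 10.4 in WT+AKI against 403 in TG+AKI, 38.5-fold higher (35.1 to 42.5), the direction the labels call for. The study reports that *Inmt* staining falls in wild-type mice under this treatment, so the ratio cannot by itself identify the transgene.

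HIF is a transcription factor made of an alpha and a beta subunit. In cells with enough oxygen, prolyl hydroxylases of the *Egln* family mark the alpha subunit, the von Hippel-Lindau protein binds the mark, and the subunit is destroyed. When oxygen is short the subunit escapes, enters the nucleus and binds short DNA elements near genes for glycolysis, vessel growth, red cell production and mitochondrial turnover. The outer medulla of the kidney works close to its oxygen limit, and epithelial and interstitial cells differ in which alpha subunit they use. These steps act on protein, and the values below are of messenger RNA.

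The core letters of the hypoxia response element are ACGTG or GCGTG. Because 3 of the genes are known HIF targets and *Egln1* and *Egln3* are both regulators and targets, these letters were searched on both strands of RefSeq promoter windows (GRCm38.p6, 250 bases before to 50 after a gene's start). Windows were found for 9 of the 10 genes, 10 windows in all, with *Epas1* the gene not found. Of all 32851 windows, 19.6% held ACGTG, 32.4% held GCGTG and 43.8% held either. Among the 10514 windows of genes compared below, the shares were 25.8%, 50.5% and 62.3%. These stretches are from the 5 target or regulator genes whose values or roles the results turn on, read on the gene's strand. Capitals mark the core letters or their reverse complements (CACGT for the first, CACGC for the second), and overlapping matches form 1 run of capitals.
Adm, chr7:110627557-110627581, plus strand: tagaagcaagCACGCtggagaggga
Adm, chr7:110627593-110627617, plus strand: caaatctgacCACGCccaccgtccg
Bnip3, chr7:138909598-138909626, minus strand: gcgCACGCgccgCACGTGccaCACGCtcc
Bnip3, chr7:138909527-138909551, minus strand: ctccgccgccGCGTGcgtcccgccc
Ankrd37, chr8:46000077-46000100, minus strand: cccagcagtACGTGcctagctcgg
Ankrd37, chr8:45999988-46000015, minus strand: cttcactgcgCACGCGTGctgcggccgc
Egln1, chr8:124949366-124949390, minus strand: ccggcccgccGCGTGcgcgcggccc
Egln3, chr12:54204089-54204113, minus strand: tgcatctcagACGTGagatccaggt

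None of these stretches lies in an annotated exon of its own gene. A further stretch of *Ankrd37* and one of *Egln1*, with 1 match each, are not shown. Of their 25 bases, 25 and 17 lie in exons of their own gene. The window of *Ankrd37* is set by a RefSeq start site at chr8:45999850, which lies inside the GENCODE span of the gene given below. The 2 matches of *Adm* begin 90 and 54 bases before the start site. *Bnip3* held 5 matches, 4 of them within the first stretch, whose first match begins 117 bases before the start site. The sequence CACGTG reads as ACGTG on both strands and was counted on each. *Ankrd37* held 4 matches, *Egln1* 2 and *Egln3* 1. Of the genes not shown, *Hif1a* held 3, the windows of *Egln2* held 6 and 1, and those of *Vhl* and *Hif1an* held 0. A match is a description of the letters and not a site of binding, and a window without one says only that the letters are absent there.

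Across the pathway the differences were of mixed sign, and *Adm* differed the most. The spread of the 10 genes ran from 5.05-fold lower to 1.71-fold higher in TG+AKI. A gene was compared where its value reached 10 in at least 1 library, which held for 10294 genes and for 9 of the 10. A gene past 2-fold is one whose log2(value + 1) differed by at least 1 between the libraries; the added 1 shrinks the difference of a gene with a low value. None of the 9 genes (0) was at least 2-fold higher in TG+AKI, beside 5.74% of all compared genes. At least 2-fold lower was 1 of 9, *Adm*, beside 7.12%. By counting error alone, 5 of the 9 had a ratio whose interval lay above 1 and 4 had one below 1, beside 41.8% and 39.5% of all compared genes. At this depth an interval off 1 is common and says little about any gene. The median log2 fold change of the 9 genes was 0.12, beside 0.014 over all compared genes.

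**Figure D1:**
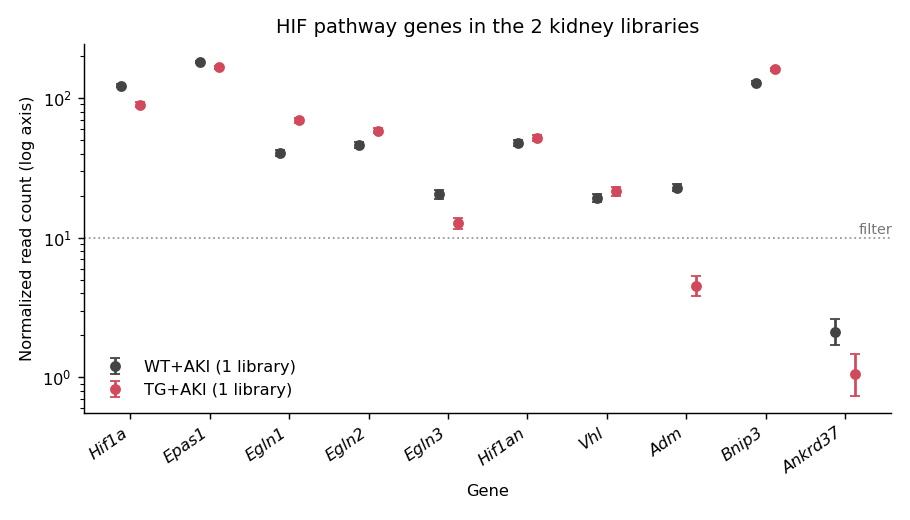
Normalized read count (log axis) of the 10 genes in WT+AKI (grey) and TG+AKI (red), 1 library each, with 95% Poisson intervals from the reads and a dotted line at the filter value of 10. *Adm* shows the widest gap, 22.9 against 4.53, and *Ankrd37* lies under the filter in both libraries.

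Both alpha subunit genes were lower in TG+AKI, *Hif1a* by more than *Epas1*. *Hif1a* (NCBI Gene ID 15251, GRCm38 chr12:73901375-73947530, plus strand) encodes HIF-1α, the subunit that responds to hypoxia in most cell types. Its value was 122 in WT+AKI against 89.8 in TG+AKI, a ratio of 0.734 (0.701 to 0.768) from 5189 and 2974 reads. *Epas1* (13819, chr17:86753700-86833410, plus strand) encodes HIF-2α, which in the kidney is known from endothelial and interstitial cells and drives erythropoietin production. It was at 181 in WT+AKI against 166 in TG+AKI, a ratio of 0.917 (0.886 to 0.949). Among all compared genes, 18.7% had a lower log2 fold change than *Hif1a* and 38.1% one lower than *Epas1*, so neither lay at the edge of the distribution. *Arnt*, which encodes the beta subunit that both partners share, was at 47.9 and 46.4, and the interval of its ratio included 1 (0.906 to 1.04). *Arnt2*, an alternative beta subunit, was at 76.8 in WT+AKI against 47.8 in TG+AKI, a ratio of 0.622 (0.586 to 0.661).

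The balance of the subunits can be read within each library, where scaling between libraries has no part. Per kilobase of the longest transcript, *Hif1a* stood at 25.9 in WT+AKI against 19.0 in TG+AKI, and *Epas1* at 32.8 and 30.1. *Epas1* thus made up 55.9% of the pair's reads per kilobase in WT+AKI against 61.3% in TG+AKI. The ratio of *Epas1* to *Hif1a* was 1.25-fold higher in TG+AKI (1.18 to 1.32), and this figure does not depend on transcript length. Which subunit was the more abundant in WT+AKI does depend on it: with the mean length of protein-coding transcripts, *Epas1* made up 49.3% there and 54.8% in TG+AKI. About 5.60% of the exon bases of *Hif1a* are also covered by an antisense gene, and the strand setting of the counting was not given in the sources used here.

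The 3 prolyl hydroxylase genes differed in opposite directions. *Egln1* (112405, chr8:124908587-124949324, minus strand) encodes PHD2, the main oxygen sensor of most cells. It was at 40.3 in WT+AKI against 69.1 in TG+AKI, 1.71-fold higher (1.61 to 1.83), and 9.55% of all compared genes had a higher log2 fold change. *Egln2* (112406, chr7:27158658-27166802, minus strand) encodes PHD1 and was at 46.0 and 58.4, 1.27-fold higher (1.19 to 1.35), or 1.05 with an interval that included 1 (0.984 to 1.12) with equal column totals. *Egln3* (112407, chr12:54178981-54203860, minus strand) encodes PHD3, whose own gene is a well-known HIF target. It was the member of the family that was lower in TG+AKI, at 20.4 in WT+AKI against 12.7 in TG+AKI. The difference was 1.61-fold (1.43 to 1.81), and 12.5% of all compared genes had a lower log2 fold change.

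Set against each other within a library, the mix of the 3 hydroxylase transcripts moved toward *Egln1*. Per kilobase, *Egln2* made up 53.7% of the family in WT+AKI against 53.6% in TG+AKI. *Egln1* made up 27.5% and 37.2%, and *Egln3* 18.8% and 9.20%. In reads, *Egln3* held 864 of 4523 (19.1%, 18.0 to 20.3, Clopper-Pearson) in WT+AKI and 419 of 4639 (9.03%, 8.22 to 9.89) in TG+AKI. The ratio of *Egln1* to *Egln3* per kilobase was 1.46 in WT+AKI against 4.04 in TG+AKI, a 2.76-fold difference (2.41 to 3.16) that is free of both scaling and length. The same comparison gave 2.04 (1.79 to 2.34) for *Egln2* against *Egln3* and 1.35 (1.24 to 1.48) for *Egln1* against *Egln2*. *Egln1* and *Egln3*, both known HIF targets, thus differed in opposite directions.

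**Figure D2:**
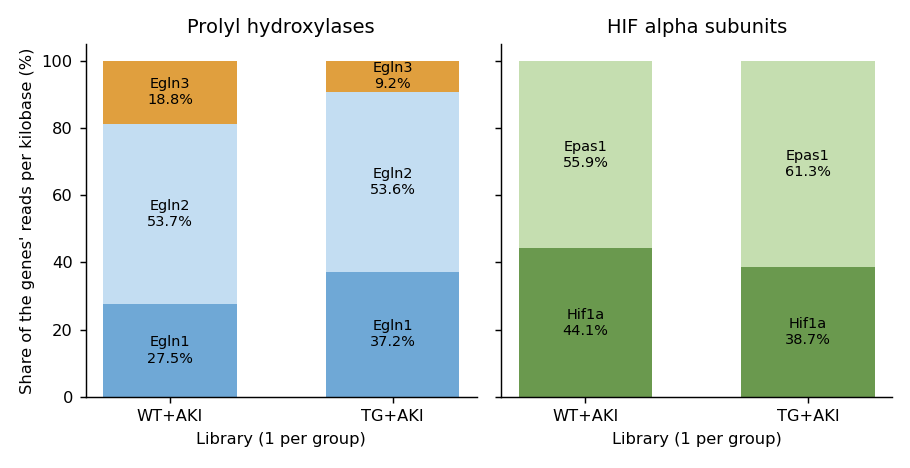
Stacked bars of the share (%) of reads per kilobase in WT+AKI and TG+AKI, 1 library each, for the prolyl hydroxylase genes (left) and the HIF alpha subunit genes (right). The share of *Egln3* was 18.8% in WT+AKI against 9.20% in TG+AKI, while that of *Egln2* was 53.7% and 53.6%.

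*Hif1an* and *Vhl*, the other genes that limit HIF, differed little. *Hif1an* (319594, chr19:44562850-44576274, plus strand) encodes FIH, an asparagine hydroxylase that blocks the binding of coactivators to HIF. It was at 47.6 in WT+AKI against 51.8 in TG+AKI, a ratio of 1.09 (1.02 to 1.16). *Vhl* (22346, chr6:113623959-113631633, plus strand) encodes the von Hippel-Lindau protein, which recognizes the hydroxylated subunit. It was at 19.2 and 21.4, a ratio of 1.12 (1.01 to 1.24). The direction of both depends on the scaling. With equal column totals *Hif1an* was lower in TG+AKI (0.90, 0.843 to 0.960), and *Vhl* was at 0.923 with an interval that included 1 (0.833 to 1.02).

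The rest of the degradation machinery differed little as well. Of 8 genes of the ubiquitin ligase built around *Vhl*, 0 were past 2-fold in either direction and their median log2 fold change was 0.09. The most abundant were the ubiquitin-conjugating enzyme genes *Ube2d3*, at 296 in WT+AKI against 327 in TG+AKI, and *Ube2d2a*, at 79.7 and 82.0. Of 10 genes whose products are known to modify HIF, 0 were past 2-fold, with a median of 0.01. The chaperone gene *Hsp90ab1* was at 707 and 877, and *Rack1*, whose product competes with it for HIF-1α, at 416 and 314. Thus no compared gene of the sensing, partner and degradation lists was past 2-fold in either direction. Over all compared genes 5.74% were at least 2-fold higher and 7.12% lower, so a count of 0 in lists this short says little.

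Of the 3 target genes, *Adm* was lower in TG+AKI and *Bnip3* was higher. *Adm* (11535, chr7:110627661-110629820, plus strand) encodes adrenomedullin, a peptide that widens blood vessels. It was at 22.9 in WT+AKI against 4.53 in TG+AKI, or 969 and 150 reads, 5.05-fold lower (4.24 to 6.03). Its log2 fold change was -2.11, and 1.79% of all compared genes had a lower one. *Adm* passed the filter through WT+AKI only, so a comparison of such a gene was bound to show a difference of that sign. Under 4 scalings of the libraries its ratio ran from 0.164 to 0.200, past 2-fold lower each time.

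*Bnip3* (12176, chr7:138890836-138909519, minus strand) encodes a receptor in the outer mitochondrial membrane that directs damaged mitochondria to breakdown. It was at 129 in WT+AKI against 161 in TG+AKI, 1.25-fold higher (1.20 to 1.30). With equal column totals its ratio was 1.03 and the interval included 1 (0.995 to 1.07). Of its exon bases, 22.3% lie opposite an antisense gene, and 9.41% of the 100-base words of its longest transcript occur also in *Gm16439* and *Gm6532*, which were listed at no more than 5.56. *Bnip3* values may therefore hold reads of other genes. *Bnip3l*, its close relative with the same role, was at 91.8 and 117, 1.27-fold higher (1.22 to 1.33).

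*Ankrd37* (654824, chr8:45996902-46005707, minus strand) encodes an ankyrin repeat protein and is known as a HIF-1 target. It was at 2.12 in WT+AKI against 1.06 in TG+AKI, below the filter in both libraries. From 90 and 35 reads it was 2.01-fold lower in TG+AKI, with a wide interval (1.35 to 3.06). Of its exon bases, 22.7% lie opposite *Lrp2bp*, which was itself listed with 18 and 7 reads. A further 3.70% lie opposite *Ufsp2*, which was at 40.4 and 45.3, so without a strand setting some of the few *Ankrd37* reads could belong to it.

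**Figure D3:**
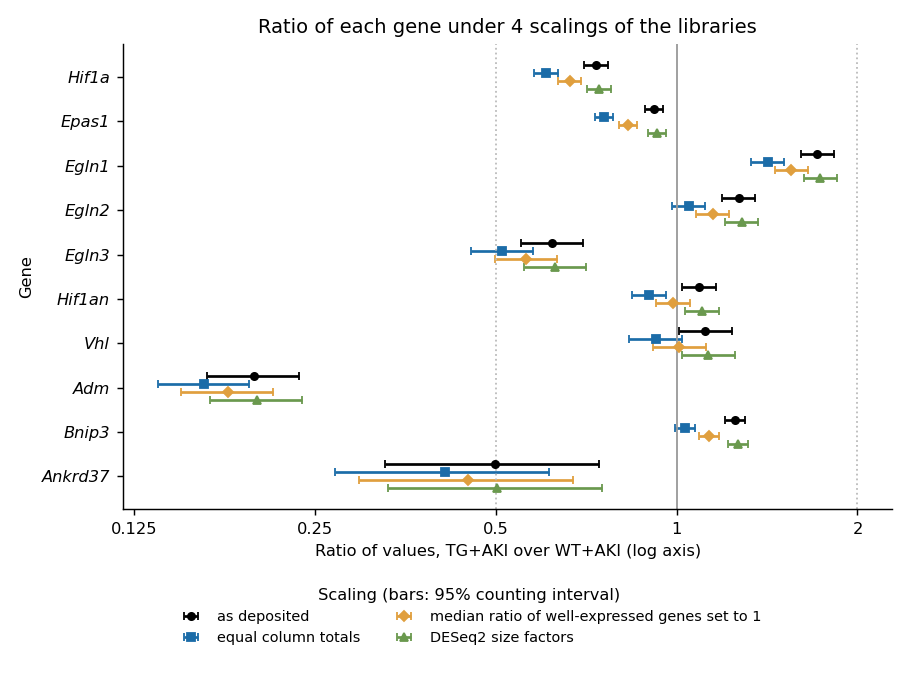
Ratio of TG+AKI over WT+AKI (log axis) for the 10 genes under 4 scalings of the libraries, with 95% counting intervals, a solid line at 1 and dotted lines at 2-fold. *Egln1* lies above 1, and *Hif1a*, *Epas1*, *Egln3*, *Adm* and *Ankrd37* lie below 1 under all 4, while *Hif1an* and *Vhl* change side and the intervals of *Egln2* and *Bnip3* reach 1 with equal column totals.

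Per kilobase, the order of the 10 genes was led by *Bnip3* in both libraries, at 73.3 in WT+AKI against 91.7 in TG+AKI. In WT+AKI it was followed by *Epas1* (32.8 per kilobase), *Hif1a* (25.9), *Egln2* (21.8), *Adm* (16.4), *Egln1* (11.2), *Hif1an* (7.69), *Egln3* (7.66), *Vhl* (6.88) and *Ankrd37* (2.29). *Hif1an* and *Egln3* were the neighbours there whose levels differed by less than counting error. In TG+AKI the order after *Bnip3* was *Epas1* (30.1), *Egln2* (27.7), *Egln1* (19.2), *Hif1a* (19.0), *Hif1an* (8.37), *Vhl* (7.68), *Egln3* (4.75), *Adm* (3.26) and *Ankrd37* (1.14). Neighbours within counting error there were *Egln1* with *Hif1a* and *Hif1an* with *Vhl*. *Adm* thus stood at place 5 in WT+AKI and at place 9 in TG+AKI. Spread between mice is not known, and the lengths are those of annotated transcripts.

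HIF targets beyond these genes were taken from 5 lists by function. The lists together held 83 listed genes, of which 68 were compared. At least 2-fold lower in TG+AKI were 16 (23.5%) and at least 2-fold higher 4 (5.88%), beside 7.12% and 5.74% of all compared genes. The median log2 fold change was -0.12. Of the 16 lower genes, 7 passed the filter through WT+AKI only, beside 337 of the 733 lower genes among all compared genes. Without the genes described above the counts were 15 and 4 of 64. With equal column totals, which moved the median of all genes by -0.27, they were 19 lower and 1 higher of 68, beside 11.0% and 3.48% of all compared genes.

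The vessel and blood targets held 8 of the 16 lower genes. Of 14 compared, 8 were at least 2-fold lower, 1 was higher, and the median was -1.04; 4 of the 8 passed through WT+AKI only. *Edn1*, for the vasoconstrictor endothelin-1, was at 11.9 in WT+AKI against 2.02 in TG+AKI, and *Cp*, for the copper oxidase ceruloplasmin, at 327 and 81.4. *Edn1* was 5.88-fold lower (4.55 to 7.70) and *Cp* 4.01-fold lower (3.85 to 4.18). *Angptl4*, *Hmox1*, *Nos3* and *Trf* were also lower, with log2 fold changes from -1.97 to -1.02. Like *Adm*, *Edn1* and *Nos3* passed the filter through WT+AKI only, which fixed the sign of their differences. *Vegfa*, the main vessel growth factor and a textbook HIF target, went the other way, at 129 in WT+AKI against 286 in TG+AKI, 2.22-fold higher (2.15 to 2.30). Of its receptors, *Kdr* was at 58.5 and 96.4 and *Flt1* at 136 and 96.7.

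The glycolysis targets differed less. Of 18 compared, 2 were at least 2-fold lower and 0 higher, with a median of -0.12. *Hk2*, which encodes the inducible hexokinase, was at 10.5 in WT+AKI against 0.574 in TG+AKI (447 and 19 reads), and *Pfkfb3*, for an activator of phosphofructokinase, at 32.5 and 13.9. Because *Hk2* passed the filter through WT+AKI only, the sign of its difference was fixed by the filter. The most abundant members split, with *Eno1* at 788 and 630 and *Tpi1* at 511 and 710. *Slc2a1*, for the glucose transporter GLUT1, was at 89.2 and 48.6, under 2-fold lower.

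Of 9 compared targets of mitochondria and cell death, 1 was at least 2-fold higher and 2 were lower, with a median of 0.32. *Ak4*, for a mitochondrial adenylate kinase, was at 140 in WT+AKI against 369 in TG+AKI, 2.64-fold higher (2.55 to 2.72). Against it stood *Pmaip1*, for the death factor NOXA, at 65.9 and 16.9, and *Ddit4*, for the mTOR inhibitor REDD1, at 63.2 and 20.7. *Bnip3* and *Bnip3l* lay between them. *Pmaip1* and *Ddit4* are also known as targets of p53 or of other stress pathways, and no cause of any difference in this list, higher or lower, was tested.

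Among 10 targets of pH and matrix, *Car12* was at 144 in WT+AKI against 332 in TG+AKI and *Lox* at 25.5 and 6.34, and the median was -0.19. *Car12* encodes a carbonic anhydrase of the tubule membrane, and *Lox* the enzyme that cross-links collagen. *Plod2*, a collagen lysyl hydroxylase gene, was at 93.8 and 57.1, and *Car9*, a classic hypoxia marker, at 9.84 and 18.9. *Lox* passed the filter through WT+AKI only and *Car9* through TG+AKI only, so the filter fixed the sign of each difference. Among 17 feedback and regulator targets, which include *Egln1* and *Egln3*, 3 were at least 2-fold lower and 1 higher, and the median was 0.15. *Plin2*, which coats lipid droplets, was at 884 and 67.4, *Tgfa* at 12.9 and 4.38 and *Bhlhe40* at 134 and 58.0. Of these, *Tgfa* passed the filter through WT+AKI only, which fixed the sign of its difference. *Ndrg1*, a stress-response gene, was at 1491 in WT+AKI against 3377 in TG+AKI. HIF targets past 2-fold thus lay on both sides in 4 of the 5 lists. Glycolysis was the list with 0 genes at least 2-fold higher, beside 5.74% of all compared genes. By sign alone its 18 compared genes also split, with 6 higher and 12 lower.

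**Figure D4:**
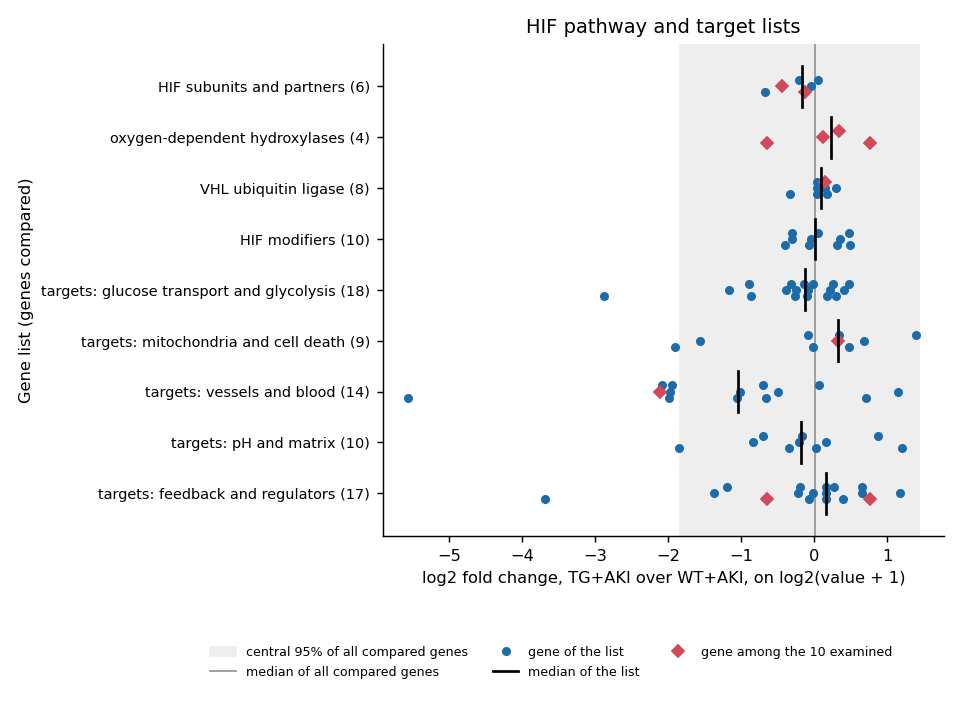
log2 fold change (TG+AKI over WT+AKI) of each compared gene in the pathway and HIF target lists, with list medians (black bars), the genes examined here as red diamonds, and the central 95% and median of all compared genes in grey. The vessel and blood targets have the lowest median, -1.04, with *Adm* among them.

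Markers of cell types and of tubule injury differed between the same libraries. In whole kidney, fewer cells of a type and less RNA per cell cannot be told apart. All 12 injured tubule markers were at least 2-fold lower in TG+AKI, beside 7.12% of all compared genes, and their summed value was 14190 in WT+AKI against 1005 in TG+AKI. Of these 12, 6 passed the filter through WT+AKI only, *Havcr1* and *Lcn2* among them, and the sign of such a difference was fixed by the filter. *Havcr1*, the kidney injury molecule KIM-1, was at 1169 and 2.78, and *Lcn2*, which encodes NGAL, at 250 and 1.87. All 12 proximal tubule markers were at least 2-fold higher, beside 5.74% of all compared genes, with summed values of 7565 and 36680. The labelled tissue, kidney, showed its markers in both libraries, with the proximal tubule gene *Kap* at 3958 in WT+AKI against 17611 in TG+AKI.

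The cell types in which vessel-related HIF targets are also used differed less. Of 12 endothelial markers, 0 were past 2-fold, beside 5.74% higher and 7.12% lower of all compared genes. Their summed value was 796 in WT+AKI against 739 in TG+AKI. Of 11 compared pericyte and fibroblast markers, 4 were at least 2-fold lower, with sums of 842 and 461 over the 12 listed. Of 8 compared macrophage and neutrophil markers, 6 were at least 2-fold lower, and all 6 passed the filter through WT+AKI only, so the count says nothing about direction. The sums over the 11 of 12 that had a row were 198.5 and 86.2, with *Cd68* at 37.1 and 1.39 and *Csf1r* at 37.5 and 43.0. Of 11 compared thick ascending limb and distal markers, 3 were at least 2-fold higher (sums 2371 and 4105), and of 8 podocyte markers 1 was higher, passing through TG+AKI only, and 1 lower (sums 713 and 617.5). The 7 of 8 lymphocyte markers that had a row summed to 2.48 and 3.44 and none was compared. No marker with a row was under the floor of 3 reads in either library. In each of the macrophage and neutrophil list and the lymphocyte list, 1 marker had no row, and whether it had reads is not known. The part of these differences in the values of *Adm*, *Egln1*, *Egln3* and the other HIF genes was not tested.

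**Figure D5:**
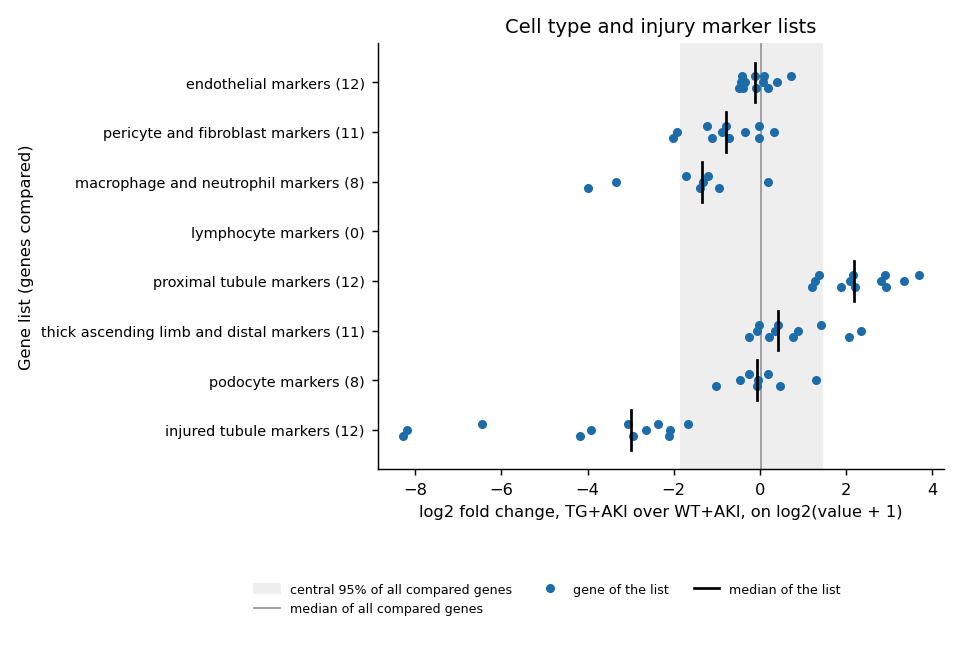
log2 fold change (TG+AKI over WT+AKI) of each compared gene in the cell type and injury marker lists, with list medians (black bars) and the central 95% and median of all compared genes in grey. Injured tubule markers have a median of -3.00 and proximal tubule markers one of 2.18, while endothelial markers lie near the centre at -0.11.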

How the data were processed

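Messenger RNA of whole kidney was sequenced in 1 WT+AKI and 1 TG+AKI mouse, grouped by the library names the submitters gave (TruSeq stranded mRNA kit). The authors aligned reads with STAR (2.7.3a in the submitters' processing notes, which name build mm10), counted them with HTSeq and normalized them; the methods name DESeq2 and the notes also edgeR. The gene annotation and the strand setting of the counting were not given in the sources used here. The deposited signal is 1 normalized read count per gene and library, with column sums of 909104 and 1099984. All values (100%) were whole multiples of the column's smallest value (tolerance 1e-06), so whole reads were recovered. The scaling matched edgeR's TMM factors on those reads (1.10 and 0.909), where DESeq2 size factors were 1.14 and 0.879. A value of 10 stands for 424 and 331.2 reads. The authors' processing could affect levels by the assignment of overlapping genes and ratios by the scaling; no listed gene was without reads, and a gene with no row was not analysed here.

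Genes whose value reached 10 in either library were compared as log2(value + 1), with 2-fold as the threshold. No count test was run, since 1 library per group leaves no residual spread. Locations, lengths and overlaps came from GENCODE M21 (GRCm38, the assembly of mm10), and promoter windows from RefSeq GRCm38.p6. Printed promoter stretches hold 10 bases beside each match, or fewer where matches lay close together, up to 30 bases in all. The 10 genes, the gene lists and the comparisons were chosen with earlier results of these data known. All 10 genes were named; of the other lists, up to 4 of the largest changes past 2-fold and the 2 highest values. A gene that this rule selects is not reported here. *Arnt*, *Arnt2*, *Bnip3l*, *Slc2a1*, *Angptl4*, *Hmox1*, *Nos3*, *Trf*, *Kdr*, *Car9* and the low targets of the closing section were named after their values were seen, as were genes that overlap *Bnip3* and *Ankrd37*. Alternatives were other pseudocounts, filters, scalings and transcript lengths. Scripts were tested on simulated data. Software was Python 3.11.15 (numpy 2.4.6, scipy 1.17.1, pandas 2.3.3, matplotlib 3.10.9) and R 4.3.3 (DESeq2 1.42.0, edgeR 4.0.16).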

Additional observations from a re-analysis of the deposited data

How the results depend on the processing

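With equal column totals the median log2 fold change of the 9 compared genes was -0.15 in place of 0.12, *Hif1an* was at -0.15 and *Vhl* at -0.11, 1 HIF target was at least 2-fold higher, and the median of the targets was -0.39. With the median ratio of well-expressed genes set to 1, which moved the median of all genes by -0.14, the median of the 9 genes and *Hif1an* were at -0.022 and that of the targets at -0.27. Without a filter the median over all 10 genes was -0.0021. With a filter of 50 it was 0.22 over 6 genes, 0 were at least 2-fold lower because *Adm* was not compared, and 9 HIF targets were lower with a median of -0.018. A pseudocount of 10 left 10 HIF targets lower, and took the genes past 2-fold from 591 to 372 higher and from 733 to 408 lower over all genes. Equal column totals gave 361 higher and 1143 lower. Length moved the shares: with mean coding length *Egln1* made up 35.5% in TG+AKI, *Egln2* 55.8% in both libraries and *Epas1* 49.3% in WT+AKI and 54.8% in TG+AKI. In reads without length, WT+AKI and TG+AKI had *Egln1* at 37.8% and 49.3%, *Egln2* at 43.1% and 41.7%, and *Epas1* at 59.6% and 64.9%. Of 71 recomputed main values 49 stayed within the set limits, 19 moved and 3 changed sign. A mean over both libraries of at least 10 and intervals wholly past 2-fold, both added after the data were seen, gave 13 and 14 HIF targets lower. No replicate could be left out. No paired analysis was possible because each group held 1 library. Depth limits *Ankrd37* most, with 90 and 35 reads.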

Other observations

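The 15 HIF targets below the filter were counted in none of the shares above. *Epo*, which encodes erythropoietin, the hormone of red cell production and the best-known product of HIF-2α in the kidney, had 7 reads in WT+AKI and 15 in TG+AKI. The ratio was 2.74 with an interval of 1.05 to 7.95. *Nos2*, the inducible nitric oxide synthase gene, had 9 and 18 reads, a ratio of 2.56 (1.09 to 6.47). *Apln*, for the vessel peptide apelin, was at 4.17 in WT+AKI against 6.76 in TG+AKI. *Angpt2* was at 6.96 in WT+AKI against 8.52 in TG+AKI, a ratio of 1.22 (1.04 to 1.45). These are values as deposited. Equal column totals moved the median of all genes by -0.27, and the ratios of these low genes under that scaling were not computed. No share over all genes below the filter was computed either, so the shared direction of these vessel and blood targets says little. *Eno2*, for a neuronal enolase, was at 3.82 and 0.876, and *Slc2a3*, for the glucose transporter GLUT3, at 2.41 and 0.876. *Aldoc*, another glycolytic gene, was at 5.40 and 9.39. Of the remaining targets below the filter, *Slc16a3*, *Bhlhe41*, *Cxcr4*, *Rasa4*, *Ndufa4l2*, *Cox4i2* and *Ankrd37* had lower values in TG+AKI, and *Stc2* had a higher one. The intervals of *Ndufa4l2*, *Cox4i2* and *Stc2* included 1. *Epo* and *Nos2* rest on few reads, as do *Eno2* and *Slc2a3* in TG+AKI, with 29 each.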
